A study of Mus musculus with 9 samples.

Results

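Small nucleolar RNAs and Cajal body RNAs were followed in jejunal crypts of mice that had lost Smad4, with or without a stabilized beta-catenin. The members were chosen by symbol and by mean level: entries whose symbol starts with Snord, Snora or Scarna, averaging at least 1 FPKM over the 6 libraries of the table that holds the controls and the double mutants. FPKM are fragment counts scaled by transcript length and library size. The rule took 89 of the 114 such entries, among 23951 entries in all: 53 of 69 Snord, 32 of 36 Snora and 4 of 9 Scarna entries. The rule used the level over both groups, and 12 members that were listed at 0 in all 3 controls passed only through the double mutants. Counts over the members are therefore descriptions.

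The 9 libraries came from 3 groups of 3. The controls are labelled control mouse with vehicle treatment, whereas the design text calls them uninjected, and their alleles are not given in the sources used here. Smad4 KO mice were Smad4f/f;Villin-CreER(T2), with floxed Smad4 and a tamoxifen-inducible recombinase driven by the villin promoter of the intestinal epithelium. Double mutants were Smad4f/f; Ex3f/+;Villin-CreER(T2), in which the recombinase also removes exon 3 of 1 beta-catenin allele and so stabilizes the protein. Both mutant groups were collected 1 day after the last of 4 daily tamoxifen injections. Ages are not given in the sources used here. Tamoxifen was given to the mutant groups alone, so genotype and tamoxifen cannot be told apart. Nothing in the labels says whether each library is a mouse of its own, so p-values measure only the spread between libraries, which may be technical.

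Box C/D small nucleolar RNAs (the Snord entries) guide ribose methylation and box H/ACA RNAs (the Snora entries) guide pseudouridylation of ribosomal RNA, and a few members of each class act in cleavage of the ribosomal precursor. Cajal body RNAs (the Scarna entries) do the same for spliceosomal RNAs. Most are cut out of introns of host genes, often genes of ribosomal proteins or non-coding genes whose spliced product codes for no known protein. The mature RNAs are short and carry no poly(A) tail, whereas the TruSeq RNA kit is known as a kit that selects poly(A) RNA and does not mark strand. Fragments from a small RNA and from its host transcript therefore cannot be told apart where the 2 overlap.

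The sequences of 6 members show the features by which the classes are known, not all of which were found in each. Snord15a and Snord53 were shown because they were listed at 0 in every control, Snord15b because it is the close copy of Snord15a in the same host, and Snord22, Snora16a and Snora33 because they had some of the smallest p-values without any 0. They are given 5′ to 3′ from GENCODE M21 transcripts of GRCm38, matched by symbol. The deposited values were made on mm9, and no position was carried from one build to the other. Capitals mark TGATGA, the letters of the C box, within the first 20 bases, CTGA, the letters of the D box, within the last 15, and ACA within the last 8. In these windows Snord53 held TGATGA without CTGA and Snord22 held CTGA without TGATGA, while Snord15a and Snord15b held both.
Snord15a, chr7:99482785-99482932, minus strand, 148 bases: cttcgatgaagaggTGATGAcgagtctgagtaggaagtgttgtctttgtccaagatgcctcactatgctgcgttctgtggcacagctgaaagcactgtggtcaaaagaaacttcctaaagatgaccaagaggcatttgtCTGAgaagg
Snord15b, chr7:99479563-99479707, minus strand, 145 bases: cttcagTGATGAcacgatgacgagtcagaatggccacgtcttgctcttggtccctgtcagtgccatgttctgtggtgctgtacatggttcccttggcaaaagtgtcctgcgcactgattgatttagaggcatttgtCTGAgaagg
Snord53, chr17:71640879-71640956, plus strand, 78 bases: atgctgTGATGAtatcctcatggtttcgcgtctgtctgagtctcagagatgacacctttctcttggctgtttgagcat
Snord22, chr19:8725866-8725991, plus strand, 126 bases: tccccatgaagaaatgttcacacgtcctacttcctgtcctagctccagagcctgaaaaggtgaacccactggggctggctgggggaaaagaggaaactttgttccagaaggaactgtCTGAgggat
Snora16a, chr4:132309465-132309600, plus strand, 136 bases: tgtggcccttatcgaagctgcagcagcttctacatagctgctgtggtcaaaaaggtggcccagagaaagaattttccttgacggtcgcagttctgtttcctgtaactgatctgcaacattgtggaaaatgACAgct
Snora33, chr10:23785347-23785475, minus strand, 129 bases: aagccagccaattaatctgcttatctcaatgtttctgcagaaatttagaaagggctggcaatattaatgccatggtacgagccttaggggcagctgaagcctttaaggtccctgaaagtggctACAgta

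TGATGA near the start together with CTGA near the end was found in 35 of the 53 Snord members (66.0%), against 33 of 45 other Snord entries of GENCODE M21 (73.3%) and 0 of the 32 Snora members. The reverse complements of the Snord members held the pair in 0 cases. ACA near the end was found in 30 of the 32 Snora members (93.8%) and in 4 Snord members (7.55%), and in the reverse complement of 3 Snora (9.38%) and 8 Snord members (15.1%). The letters thus divided the members much as their symbols do. Some members are close copies, and reads could be split or shared between them by the counting. Snord1b and Snord1c were identical at 98.7% of aligned bases, Snord88a and Snord88c at 94.4%, and Snord15a and Snord15b at 81.7%.

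The deleted gene was checked first. Smad4, whose protein carries BMP and TGF-beta signals to the nucleus, had control values of 46.1, 55.5 and 47.8 FPKM (libraries 0, 1 and 2) and Smad4 KO values of 11.0, 9.96 and 10.8 FPKM. In the second table it was at 47.5, 58.8 and 49.8 FPKM in the controls and at 11.2, 10.2 and 9.95 FPKM in the double mutants. All mutant libraries were below all controls, as labelled, and a level of the whole Ctnnb1 gene does not check the removal of 1 exon. The 2 tables were normalized separately: control values differ between them by 1 factor a library, from 1.03 to 1.06. Each table was tested alone, and both comparisons share the same 3 controls. Between 15336 and 16765 genes were above 0 FPKM in a library. Depth cannot be read from FPKM, so counting intervals are not given.

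Members were often listed at 0, box C/D entries more often than box H/ACA entries. Of the 89 members, 52 were at 0 in at least 1 of the 9 libraries: 36 of the 53 Snord, 12 of the 32 Snora and all 4 Scarna members. Control 1 held the most zeros. In controls 0, 1 and 2, 24, 36 and 24 members were at 0. In Smad4 KO libraries 0, 1 and 2 the number was 24, 22 and 19, and in double mutants 0, 1 and 2 it was 8, 15 and 20. The controls and the Smad4 KO libraries overlapped, and every double mutant library had fewer zeros than every control. With 3 libraries against 3 an exact permutation test cannot go below p = 0.1, so no such count can pass it. At 0 in every library of a group were 12 members in the controls, 9 in the Smad4 KO group and 2 in the double mutants (Snord110 and Snord82). By the rule the 12 became members only through the double mutants, and the 2 only through the controls. The rule did not read the Smad4 KO libraries, so entries above 0 only there, such as Snord70, were left out. Zeros of the Smad4 KO group therefore do not compare evenly with those of the other groups. In 4 members only 1 of the 9 libraries was above 0, and 2 members were above 0 only in controls.

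**Figure D1:**
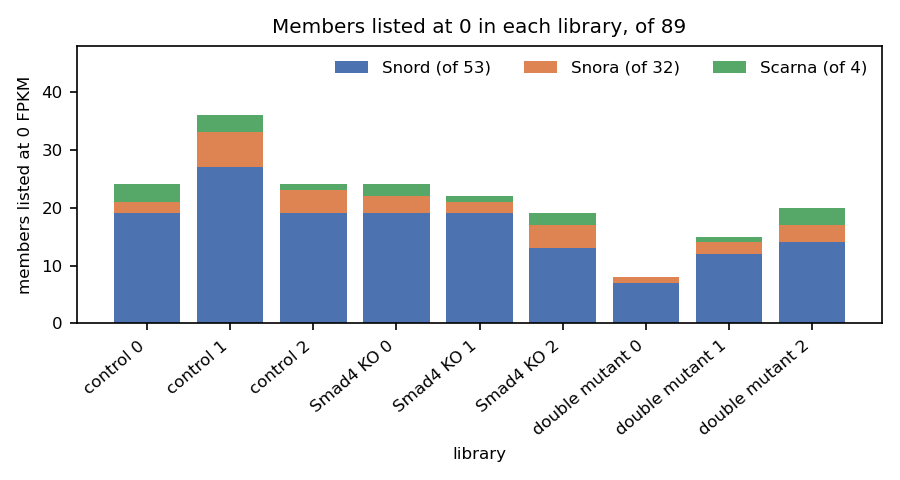
Number of the 89 members listed at 0 FPKM (y axis) in each of the 9 libraries (x axis), stacked by class. Control 1 has the tallest bar, with 36 members, and double mutant 0 the shortest, with 8, and most of each bar is Snord entries.

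An exact 0 and a high value stood side by side in the same group. Snord65, one of the most abundant box C/D entries, was at 5710, 0 and 4015 FPKM in the controls and at 4128, 1709 and 7375 FPKM in the double mutants. In its own table the Smad4 KO group stood at 1900, 0 and 5409 FPKM. The zeros of Snord65 lay in 1 control and in 1 Smad4 KO library, beside values of 1900 FPKM or more, so the groups overlapped. Snord69 was at 6908, 0 and 0 FPKM in the controls and at 7076, 6182 and 6681 FPKM in the double mutants. Control 0 was as high as the mutants and the other controls were at 0. Snord99, which lies in the non-coding host Snhg12, was above 0 in double mutant 0 at 14204 FPKM and in Smad4 KO 1 at 2083 FPKM, and at 0 in the other 7 libraries. Snord1a, at 0 in control 1, was listed at vanishing values far below 1 FPKM in several other libraries. Counting values under 1 FPKM with the zeros raised the 52 members to 53, with Snora members going from 12 to 13 and Snord members staying at 36.

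Level followed length, and zeros were most frequent in the shortest members. Median RefSeq length was 68 bases for Snord, 120.5 for Snora and 183 for Scarna members. For some members these lengths differ from those of GENCODE M21. RefSeq and GENCODE gave 68 and 78 bases for Snord53, 71 and 325 for Scarna10, and 157 and 128 for Snora78. The lengths behind the deposited FPKM are not given, so the bands are approximate. The 29 members of up to 70 bases had a median mean of 1267 FPKM in the double mutant table, and 25 of them were at 0 somewhere. The smallest value above 0 in any library had a median of 923 FPKM in these members. From 71 to 100 bases (23 members) the median mean was 197 FPKM and the median smallest value 125 FPKM, with zeros in 12 members. In the 30 members of up to 150 bases that follow these medians were 100.2 and 32.9 FPKM, with zeros in 12, and in the 7 longer members 6.90 and 2.02 FPKM, with zeros in 3. The shortest entries thus tended to stand either at 0 or at high FPKM. Across the 89 members, which share the same libraries, Spearman's rho of length was -0.716 with the mean and -0.811 with the smallest value above 0, given as a description. A level of a Snord entry is on this scale of FPKM per length and should be read beside its length.

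**Figure D2:**
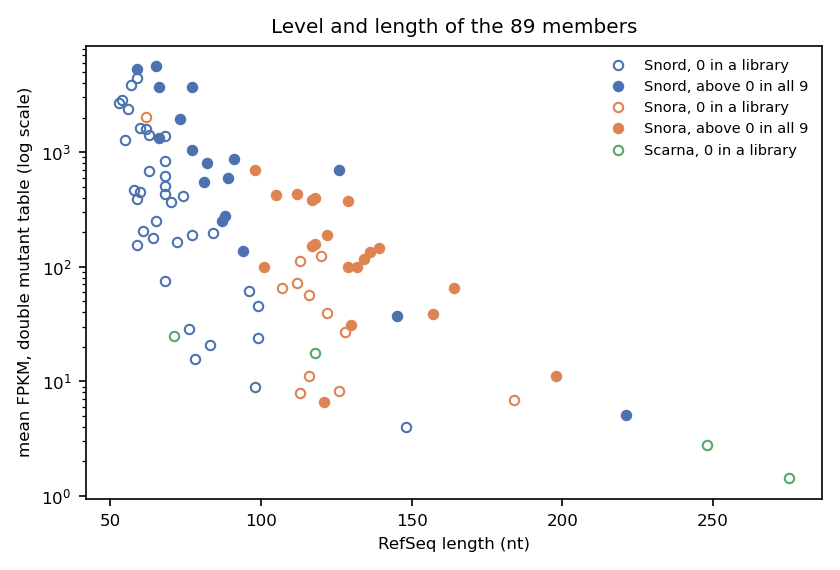
Mean FPKM over the 6 libraries of the double mutant table (y axis, log scale) against RefSeq length in nucleotides (x axis) for the 89 members. Filled points were above 0 in all 9 libraries and open points were at 0 in at least 1; the highest levels and most open points are at the short, Snord end.

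The threshold cut through the longer entries. Just inside were Scarna13 with a mean of 1.42 FPKM, Scarna6 with 2.77 and Snord15a with 3.98 FPKM. Just outside was Snora24 with 0.948 FPKM, which was above 0 in 8 of 9 libraries, and the other 24 left out were at 0 in the whole double mutant table. Of the members, Scarna10, Snora36b, Snord1c and Snord92, 4 in all, were below a mean of 1 FPKM in the table of the Smad4 KO group and were not tested there, and 5 entries left out by the rule reached it.

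Values of a member varied more between libraries of a group than those of other genes. In the double mutant table the median coefficient of variation of the members was 61.8% in the controls and 55.2% in the mutants, against 14.3% and 11.3% over all genes tested. It was 89.4% and 62.5% for Snord, and 44.2% and 45.6% for Snora members. Host genes of the members were at 14.6% and 11.0%, close to all genes. MicroRNA entries, the other short entries of the tables, were at 173% and 108%.

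The members together made up more of each mutant library than of any control. They held 5.73%, 3.87% and 5.82% of the summed FPKM of controls 0, 1 and 2, 14.1%, 12.4% and 9.55% of Smad4 KO libraries 0, 1 and 2, and 16.3%, 12.7% and 14.5% of the double mutants. No mutant library overlapped the controls, and the Smad4 KO and double mutant libraries overlapped each other. Control 1, with the most zeros, was lowest. A few entries made much of each sum, since the 3 highest members held between 26.8% and 45.9% of the members' FPKM in a library. The sums include the 12 members at 0 in all controls, which entered the set only through the double mutants. Among them, Snord37 was at 15355 FPKM in Smad4 KO 1 and 11602 in double mutant 2. Snord99, another, was at 14204 FPKM in double mutant 0. Shares without these 12 members were not computed. In bulk RNA, more cells with these transcripts and more RNA per cell cannot be told apart.

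In the Smad4 KO table none of the 85 members tested was called, but most fold changes were positive. Limma on log2(FPKM + 1), adjusted over all 11849 genes tested, called 0 members at an adjusted p below 0.05. Over all genes it called 0.00844% higher and 0.0253% lower, 0.0338% in all. At an unadjusted p below 0.05, 25 members were higher and 2 lower, against 9.76% and 9.34% of all genes. The log2 fold change was positive in 66 members and negative in 19, with a median of 1.06 against -0.0032 over all genes tested. Members at 0 in all controls could not have a negative fold change. Among the 40 members above 0 in all 6 libraries, 36 fold changes were positive and 4 negative, with a median of 0.99. Other short entries also leaned upwards. Of the 222 other tested entries of up to 250 bases, 129 had a positive and 93 a negative fold change, with a median of 0.65. All 3 Smad4 KO libraries were above all controls in 23 members, 14 Snora and 9 Snord, and all below in 1, Snora2b. Over all genes, 14.2% were so separated upwards and 12.2% downwards. The smallest limma adjusted p-values were 0.102 for Snora16a and 0.107 for Snora33. Leaving out 1 library called 4 members without control 0 (Snora75, Snord15b, Snord23 and Snord69, all higher), 3 without control 1 (Snord19 higher, Snord110 and Snord85 lower), 2 without Smad4 KO 0 (Snord37 and Snord53, higher) and 1 without Smad4 KO 1 (Snord8, lower). In all of these but Snord15b, the controls or the mutants left in the fit were then all at 0. These calls thus rest on which library was left out. Snord37 and Snord53 also entered the set only through the double mutants. Each such fit called more genes in all than the 4 of the main fit.

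In the double mutants 16 of the 89 members were called higher and none lower: 8 Snord, 7 Snora and 1 Scarna entry. Over the 11762 genes tested, limma called 9.39% higher and 9.09% lower, 18.5% in all. At an unadjusted p below 0.05, 35 members were higher and 1 was lower, against 18.2% and 18.4% of all genes. Log2 fold changes were positive in 73 members and negative in 16, with a median of 1.41 against -0.0013 over all genes, 1.92 for Snord and 1.07 for Snora. The 12 members at 0 in all controls entered only through the double mutants, so their fold changes could only be positive. Those of the 2 members at 0 in all double mutants could only be negative. Among the 40 members above 0 in all 6 libraries, 35 fold changes were positive and 5 negative, with a median of 1.12. All 3 double mutant libraries were above all controls in 29 members and below in 0, where 21.3% of all genes were separated in each direction. Snord15a and Snord53 are among the 29 as well. Of the 210 other tested entries of up to 250 bases, 3 were called higher and 1 lower, with a median log2 fold change of 0.84. Called members numbered 3 when double mutant 2 was left out (Snord15a, Snord53 and Snora36b, all listed at 0 in every control, so that no member with a control value above 0 stayed called), 4 when double mutant 0 was and 9 when control 1 was (8 higher and, with Snord110, 1 lower), and 8 when no gene was filtered out for a low mean. Calls over all genes also fell below the 2173 of the main fit in each of these fits, so the loss was not particular to the members.

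**Figure D3:**
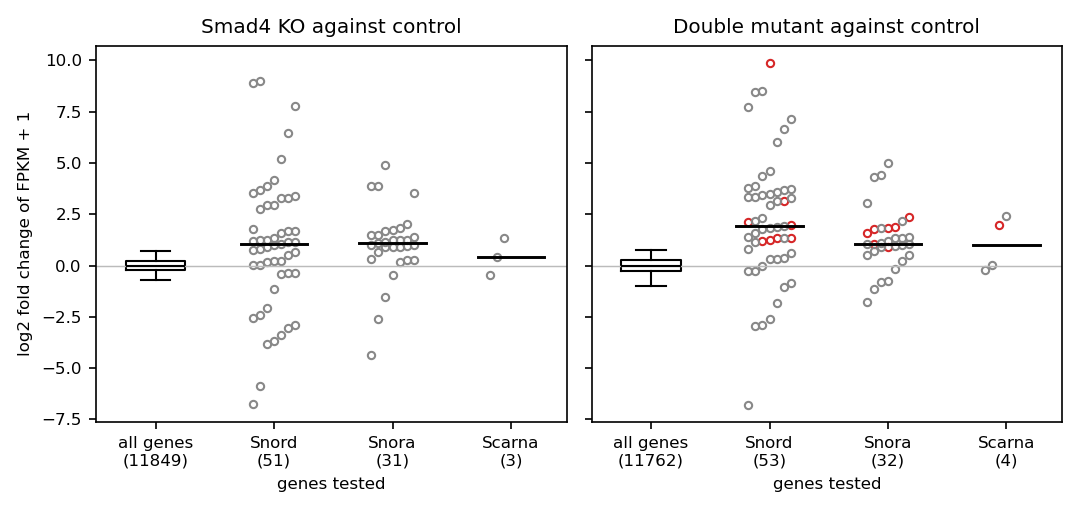
Log2 fold change of FPKM + 1 against control (y axis) for each tested member by class (points, black line at the median) and for all genes tested (box from the lower to the upper quartile, whiskers at the 5th and 95th percentiles), with the number tested in brackets. Red points are the 16 members called in the double mutants; medians of Snord and Snora lie above 0 in both panels, and Snord points scatter most widely.

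Among the box C/D members, Snord15a and Snord53 were picked to stand for the set with these values known, so their difference is described here without a p-value. Both are among the 16 members called by the fit, beside 14 others. Snord15a lies in an intron of Rps3, a ribosomal protein gene. It was listed at 0 in all 3 controls and at 6.71, 8.22 and 8.96 FPKM in double mutants 0, 1 and 2. Its Smad4 KO values were 0, 8.10 and 34.4 FPKM. The double mutants were all above the controls at a low level and close together, while 1 Smad4 KO library was at 0 like the controls. Snord15b in the same host was at 54.2, 9.68 and 6.90 FPKM in the controls and 53.5, 78.3 and 19.3 FPKM in the double mutants, so its groups overlapped. Snord53 lies in an intron of Wdr43, a gene of ribosome biogenesis. It was at 0 in all controls, at 951, 371 and 2424 FPKM in the double mutants and at 0, 1063 and 621 FPKM in the Smad4 KO libraries. Again the double mutants were all above 0, and Smad4 KO 0 was not. No fold change is given here for Snord15a or Snord53, since their controls were all listed at 0.

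Snord22, a box C/D RNA known for a part in processing of the ribosomal precursor, lies in the non-coding host Snhg1 and was above 0 in all libraries. It stood at 291, 215 and 358 FPKM in the controls and at 1238, 1015 and 1094 FPKM in the double mutants. Every double mutant was above every control. The means were 288 ± 71.6 and 1116 ± 113 FPKM (SD, n = 3), and the log2 fold change was 1.98 (SE 0.22, limma adjusted p = 0.0107). Its Smad4 KO libraries were at 1262, 736 and 701 FPKM, also above every control of that table, with a log2 fold change of 1.68 (SE 0.32, limma adjusted p = 0.115). Its call in the double mutants was lost without double mutant 2.

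Snord52 and Snord96a were the most abundant of the called members. Snord52, in the non-coding host 1110038B12Rik, was at 2770, 1326 and 1960 FPKM in the controls and at 10083, 6198 and 9367 FPKM in the double mutants. The double mutants were all higher, by a log2 fold change of 2.11 (SE 0.39, limma adjusted p = 0.0224). Snord52 in the Smad4 KO libraries stood at 9632, 2361 and 8915 FPKM, so that 1 library lay within the controls. Snord96a, which overlaps an exon of Gnb2l1 (Rack1, a protein of the small ribosomal subunit), was at 2129, 2287 and 2134 FPKM in the controls and at 6503, 3858 and 5307 FPKM in the double mutants. Its controls were close together and all mutants were above them, with a log2 fold change of 1.23 (SE 0.29, limma adjusted p = 0.0378). It was at 5785, 5621 and 4626 FPKM in the Smad4 KO libraries, all above the controls (log2 fold change 1.35, limma adjusted p = 0.135). The call of Snord52 was lost without control 1 or 2 or without double mutant 0 or 2, and that of Snord96a without any single library.

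The other 3 called Snord members also lay above all controls in every double mutant. Snord16a, in the ribosomal protein gene Rpl4, was at 558, 436 and 455 FPKM in the controls and 1689, 1023 and 1036 FPKM in the double mutants (log2 fold change 1.34, limma adjusted p = 0.0228). Snord35a, in the ribosomal protein gene Rpl13a, was at 475, 342 and 257 FPKM in the controls and 869, 1004 and 592 FPKM in the double mutants (log2 fold change 1.21, limma adjusted p = 0.0410). Snord17, a long box C/D entry in Snx5, was at 1.98, 1.95 and 3.00 FPKM in the controls and 6.07, 5.42 and 11.8 FPKM in the double mutants (log2 fold change 1.35, limma adjusted p = 0.0300). Their calls were lost without control 1 or 2 or double mutant 0 or 2 for Snord16a, without any library but control 0 for Snord35a, and without any single library for Snord17. Snord35a and Snord17 in the Smad4 KO table were above all controls in every mutant library, and Snord16a at 1291, 537 and 1284 FPKM reached into the controls with its lowest value.

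**Figure D4:**
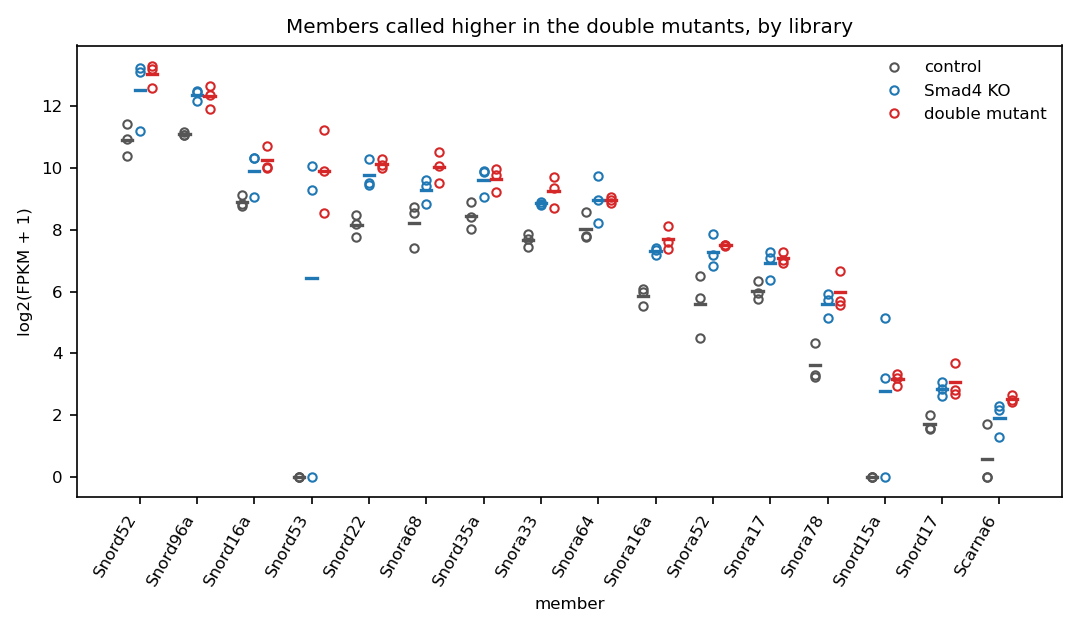
Log2(FPKM + 1) of the 16 members called in the double mutants (y axis), with 1 circle for each library and a bar at the group mean; Smad4 KO values come from the other, separately normalized table. Every double mutant circle is above every control circle, and Snord53 and Snord15a are at 0 in the controls and in Smad4 KO 0.

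Among the box H/ACA members, Snora16a and Snora33 had the smallest adjusted p in the Smad4 KO table and were called in the double mutants. Snora16a lies in an exon of the non-coding host Snhg12. It was at 45.3, 61.9 and 67.4 FPKM in the controls and at 278, 165 and 194 FPKM in the double mutants, a log2 fold change of 1.83 (SE 0.24, limma adjusted p = 0.0126). In the Smad4 KO libraries it was at 143, 163 and 169 FPKM, a log2 fold change of 1.51 (SE 0.17, limma adjusted p = 0.102). No mutant library of either group overlapped the controls. Snora33, in the ribosomal protein gene Rps12, was at 232, 171 and 207 FPKM in the controls and at 831, 420 and 654 FPKM in the double mutants (log2 fold change 1.59, SE 0.27, limma adjusted p = 0.0196). It was at 456, 447 and 479 FPKM in the Smad4 KO libraries (log2 fold change 1.25, SE 0.17, limma adjusted p = 0.107). Its Smad4 KO values were close together and all well above the controls. The double mutant call of Snora16a was lost without double mutant 2, and that of Snora33 without double mutant 0 or 2.

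The other 5 called Snora members ranged from 8.37 to 1454 FPKM in the double mutant table. Snora78 was at 8.83, 8.37 and 19.0 FPKM in the controls and 46.7, 99.6 and 50.3 FPKM in the double mutants (log2 fold change 2.35, limma adjusted p = 0.0194). Snora52, in Rplp2, was at 21.4, 54.8 and 89.7 FPKM in the controls and 179, 180 and 179 FPKM in the double mutants (log2 fold change 1.90, limma adjusted p = 0.0430). Both rose above all controls, and the 3 double mutant values of Snora52 were nearly equal. Snora68 was at 426, 170 and 369 FPKM in the controls and 1454, 727 and 1061 FPKM in the double mutants (log2 fold change 1.79, limma adjusted p = 0.0366). Snora17 was at 80.0, 61.1 and 53.5 FPKM in the controls and 130, 155 and 121 FPKM in the double mutants (log2 fold change 1.06, limma adjusted p = 0.0187). Neither of these overlapped the controls, and in the Smad4 KO table the libraries of Snora78, Snora52, Snora68 and Snora17 did not overlap the controls either. Snora64, in Rps2, was at 214, 222 and 377 FPKM in the controls and 527, 498 and 464 FPKM in the double mutants, the smallest of the called changes (log2 fold change 0.92, limma adjusted p = 0.0460). Each of these 5 calls was lost without double mutant 0 or double mutant 2, and those of Snora68, Snora52, Snora64 and Snora17 also without double mutant 1. Without control 1 the calls of Snora68, Snora52 and Snora64 were lost, without control 2 that of Snora68, and without control 0 that of Snora64.

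The most abundant Snora members were not all called. Snora61, also in Snhg12, was at 762, 0 and 1126 FPKM in the controls and at 4563, 4183 and 1510 FPKM in the double mutants. It was at 2348, 2637 and 3273 FPKM in the Smad4 KO libraries. All mutant libraries were above the controls, of which control 1 was at 0 (log2 fold change 5.01, SE 2.66, limma adjusted p = 0.225 in the double mutants). Snora31, in Tpt1, was at 246, 102 and 408 FPKM in the controls and 906, 450 and 450 FPKM in the double mutants (limma adjusted p = 0.125). Snora65, in Rpl12, was at 346, 204 and 257 FPKM in the controls and 562, 367 and 629 FPKM in the double mutants (limma adjusted p = 0.0645). In both, every double mutant was above every control without passing the test. Snora3 was at 0, 22.6 and 52.5 FPKM in the controls and 136, 280 and 248 FPKM in the double mutants (limma adjusted p = 0.0828).

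Snord47 had a high level and clear separation without a call. It lies in Gas5, a non-coding host of many box C/D RNAs, and was at 2806, 1084 and 4377 FPKM in the controls. It was at 11292, 7109 and 7103 FPKM in the double mutants (log2 fold change 1.81, SE 0.57, limma adjusted p = 0.0736) and at 7419, 8179 and 5128 FPKM in the Smad4 KO libraries (log2 fold change 1.58, SE 0.61, limma adjusted p = 0.248). All 6 mutant libraries were above all controls of their table. Snord49a was at 1722, 0 and 0 FPKM in the controls and 3047, 2294 and 2466 FPKM in the double mutants (limma adjusted p = 0.108). Snord73a was at 0, 367 and 0 FPKM in the controls and 807, 667 and 725 FPKM in the double mutants (limma adjusted p = 0.0884). Both were above all controls in the double mutants, and in the Smad4 KO group both overlapped the controls, with 1 library of Snord49a and 2 of Snord73a at 0. Snord23 went the other way round: its Smad4 KO libraries, at 110, 139 and 161 FPKM, were above all controls, which were at 51.4, 0 and 0 FPKM, and its double mutants, at 41.4, 48.6 and 0 FPKM, were not. The difference between the mutant groups was not tested, since the tables were normalized separately.

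No member was called lower. Snora2b, in Kansl2, was the 1 member whose Smad4 KO libraries all lay below the controls. It was at 31.9, 86.6 and 85.5 FPKM in the controls and at 0, 26.8 and 0 FPKM in the Smad4 KO libraries (log2 fold change -4.38, SE 1.36, limma adjusted p = 0.187). In the double mutants it was at 44.9, 27.8 and 148 FPKM and overlapped the controls. Snord110, in an intron of Nop56, was at 1366, 0 and 967 FPKM in the controls and at 0 in all 3 double mutants, and at 0 in all 3 Smad4 KO libraries. Control 1, at 0 as well, made the groups overlap, and the calls of Snord110 as lower in the fits without control 1 rest on leaving out that library. Snord110 was chosen after its values were seen, as were Snord1a, Snord15b, Snord32a, Snord33, Snord34, Snord57, Snord99 and Snora44. Snord57 in the same host was at 0, 1388 and 1599 FPKM in the controls and at 2218, 1927 and 1398 FPKM in the double mutants.

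The Scarna members were few and low. Scarna6, in Atg16l1, was at 0, 0 and 2.25 FPKM in the controls and 4.67, 5.28 and 4.41 FPKM in the double mutants (log2 fold change 1.96, SE 0.47, limma adjusted p = 0.0387). It was the 1 Scarna member called, and its Smad4 KO values of 1.47, 3.85 and 3.47 FPKM overlapped the controls. Its call was kept, among the fits without 1 library, only without control 2. Scarna13 was at 1.06, 0 and 2.95 FPKM in the controls and 0.771, 3.74 and 0 FPKM in the double mutants. Scarna3a was at 0, 17.97 and 41.3 FPKM in the controls and 30.0, 15.9 and 0 FPKM in the double mutants. Neither showed separated groups in either table. Scarna10 was above 0 only in double mutant 0, at 148 FPKM.

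Host genes had a smaller median fold change than the members, though not every host changed less than the member inside it (Rpl12 1.13 and Snora65 0.94 on the log2 scale in the double mutants). In GENCODE M21, 83 members lay inside 62 host genes that are in the tables, 20 of them genes of ribosomal proteins, and 45 of these members overlapped an exon of the host in at least 1 transcript. In the double mutants 19 of the 61 hosts tested were called higher and 0 lower, with a median log2 fold change of 0.26, where 9.39% of all genes were called higher and 9.09% lower. With 1 library left out, the 19 calls became 2 (double mutant 0), 8 (double mutant 1), 0 (double mutant 2) and 10 (control 0 or control 2). Calls over all genes fell in these fits as well. For the Smad4 KO group 0 of 61 hosts were called, with a median of 0.18. Among ribosomal protein hosts 3 of 20 were called in the double mutants, with a median of 0.09, while 7 of the 26 members inside them were called, with a median of 1.37. The 3 hosts were listed at low levels: Rpl10, Rpl12 and Rpl23a had control means of 2.29, 2.69 and 0.312 FPKM. Among the other hosts 16 of 41 were called, with a median of 0.44, and 8 of the 57 members inside them, with a median of 1.83. Members that overlap a host exon and members within introns alone had medians of 1.83 and 1.35. These counts and medians include members at 0 in all controls, which entered the set only through the double mutants. Over all 82 pairs of a member and a tested host in the double mutants, 57 had fold changes of the same sign, and in the Smad4 KO group 51 of 77 did. Spearman's rho between member and host fold changes was 0.175 and 0.0169, given as a description over pairs that share libraries and, in part, hosts.

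Rps3, the host of Snord15a, was at 541, 707 and 525 FPKM in the controls and at 505, 595 and 560 FPKM in the double mutants. Its groups overlapped, with a log2 fold change of -0.08. Gnb2l1 and Rpl4, the hosts of Snord96a and Snord16a, had log2 fold changes of -0.07 and -0.05. The fold changes of these hosts were near 0, beside 1.23 for Snord96a and 1.34 for Snord16a. Among non-coding hosts, Gas5 was at 48.4, 28.3 and 55.6 FPKM in the controls and 117, 87.3 and 96.8 FPKM in the double mutants (log2 fold change 1.21, limma adjusted p = 0.0307). Snhg1 and Snhg12, the hosts of Snord22 and of Snora16a, had log2 fold changes of 0.76 and 0.99 (limma adjusted p = 0.0313 and 0.0260). Of the 11 non-coding hosts tested from a list of 17, limma called 7 higher in the double mutants and none lower. Called were Gas5, Snhg1, Snhg3, Snhg4, Snhg5, Snhg8 and Snhg12. Of these, only Gas5, Snhg1 and Snhg12 hold a member of the set in GENCODE M21. Over all genes tested, 9.39% were called higher and 9.09% lower. Snhg18 lay below all controls in every double mutant without being called (log2 fold change -0.53, limma adjusted p = 0.176). Wdr43, the host of Snord53, also rose, by 0.69 (limma adjusted p = 0.0287). Some hosts were listed at levels far below those of other ribosomal protein genes, for example Rps12 at 1.85, 2.30 and 0.843 FPKM in the controls, so their ratio to a member was not used.

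**Figure D5:**
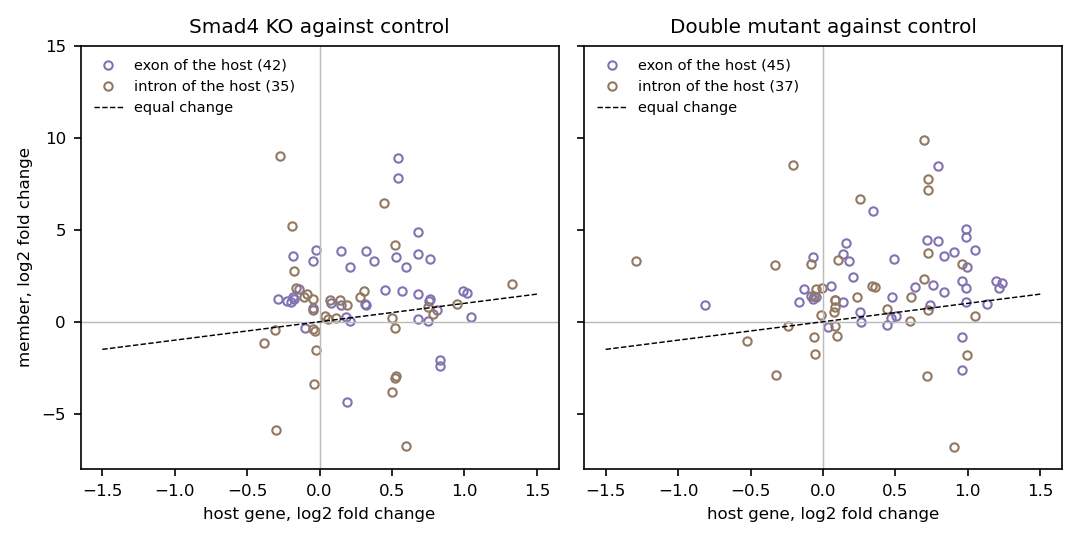
Log2 fold change of FPKM + 1 of each member (y axis) against that of its host gene (x axis), for members that overlap an exon of the host and members in introns alone; the dashed line marks equal change. Hosts lie between -1.29 and 1.24 in the double mutants while members span -6.78 to 9.89, so the points spread far more widely along the y axis. The ends of this span are Snord110, at 0 in all double mutants, and Snord53, at 0 in all controls. Their size depends on the constant added to FPKM.

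Members that share a host are given side by side, and differences between them were not tested. Rpl13a holds 4 members, with log2 fold changes in the double mutants of 1.21 for Snord35a, which was called, 1.17 for Snord33, 0.83 for Snord32a and -0.25 for Snord34. Snord33 was at 315, 602 and 503 FPKM in the controls and 1487, 1428 and 515 FPKM in the double mutants, and Snord34 was at 1581, 1520 and 737 FPKM and 742, 2825 and 505 FPKM. Snord32a was at 313, 314 and 475 FPKM in the controls and 884, 304 and 971 FPKM in the double mutants. All 3 overlapped the controls. Snhg12 also holds 4 members, all with a positive log2 fold change in the double mutants: 1.83 for Snora16a, which was called, 5.01 for Snora61, 1.06 for Snora44 and 4.60 for Snord99, which was above 0 in 1 of the 6 libraries. Snord99 was at 0 in all controls, so the size of its fold change depends on the constant added to FPKM. In 2410006H16Rik, Snord49a lay above all controls in the double mutants and Snord49b and Snord65 overlapped them.

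Of the genes for proteins that bind, assemble and trim these RNAs, 17 of 31 were called higher in the double mutants and 0 lower. Fold changes were positive in 29 and negative in 2, with a median log2 fold change of 0.50. Over all genes 9.39% were called higher and 9.09% lower. With 1 library left out, the 17 calls became 8 (control 0), 9 (control 2), 4 (double mutant 0), 5 (double mutant 1) and 0 (double mutant 2). Calls over all genes fell in these fits as well. Of the box C/D core proteins 4 of 5 were called. Nop56, a scaffold of the box C/D particle, was at 37.3, 35.8 and 36.4 FPKM in the controls and 68.2, 64.3 and 75.2 FPKM in the double mutants (log2 fold change 0.90, limma adjusted p = 0.00998). Fibrillarin (Fbl), the methyltransferase, was at 11.6, 15.3 and 11.0 FPKM in the controls and 13.9, 23.6 and 26.7 FPKM in the double mutants, and was not called (limma adjusted p = 0.112). Nop56, Nop58, Nhp2l1 and Rrp9 were thus called higher, and Fbl was not.

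Of the H/ACA core proteins 3 of 4 were called. Gar1 was at 31.6, 35.5 and 30.7 FPKM in the controls and 72.9, 68.3 and 71.9 FPKM in the double mutants (log2 fold change 1.11, limma adjusted p = 0.00694). Dyskerin (Dkc1), the pseudouridine synthase, was at 27.1, 32.8 and 24.0 FPKM and 36.8, 41.9 and 42.9 FPKM (log2 fold change 0.53, limma adjusted p = 0.0442). Nhp2 was called as well and Nop10 was not. Of the assembly factors 8 of 10 were called, among them Nolc1 and Naf1, but not Pih1d1 and Znhit3. Of the 4 Cajal body and cap factors 1 was called (Smn1), and of the 8 debranching and trimming factors 1 (Exosc10). In the Smad4 KO group limma called 0 of the 31 genes, with 12 higher and 0 lower at an unadjusted p below 0.05 and a median of 0.30.

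Marker genes of other cell types differed between groups and between libraries. The summed leukocyte markers (Ptprc, Cd3e, Cd3g, Cd8a and Gzma, none of them a member) ran from 85.7 to 127 FPKM in the controls, from 8.29 to 152 in the Smad4 KO libraries and from 17.6 to 50.3 in the double mutants, where 5 of 5 were called lower; in the Smad4 KO group 0 were called. Summed enterocyte markers (Sis, Apoa1, Fabp1 and Alpi) ran from 1804 to 5489 FPKM in the controls, 487 to 8550 in the Smad4 KO libraries and 577 to 1188 in the double mutants, where 3 of 4 were called lower. Markers of fibroblasts, muscle and endothelium (Dcn, Col1a1, Col3a1, Des and Pecam1) summed to at most 1.66 FPKM in the controls, 61.8 in Smad4 KO 2 and 39.0 in double mutant 0. Red blood cell markers (Hbb-b1, Hba-a1 and Alas2) summed to at most 4.80 FPKM in the controls, 38.9 in Smad4 KO 2 and 27.1 in double mutant 0. Of these lists 2 of 5 and 1 of 3 genes were tested, and limma called none. Double mutant 0, where stromal markers were highest in its group, was also the library with the fewest members at 0 (8) and the largest share of members in its sum (16.3%). The other double mutants, at 1.34 and 1.75 FPKM of stromal markers, had shares of 12.7% and 14.5%, also above all controls. Smad4 KO 2, with the highest stromal sum of all libraries, had the fewest members at 0 in its group (19) but the smallest share (9.55%). B cell and antigen-presenting cell markers (Cd79a, Cd74 and H2-Aa) overlapped between groups, from 636 to 1693 FPKM in the controls and 486 to 1134 in the double mutants. Crypt epithelial markers, the labelled tissue, were present in every library with sums from 5027 to 32753 FPKM. Their part in the values of the small RNA entries was not tested.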

How the data were processed

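The deposited values are FPKM, made by the authors with TopHat2 2.1.1, Cuffnorm 2.2.1 and Cuffdiff 2.2.1 on mm9, per the submitters' processing notes, with an annotation not given in the sources used here. FPKM divide by length, so short entries move in large steps. Crypts were freed in 3 mM EDTA, filtered at 70 micron and sequenced from a TruSeq RNA library (kit version 2), per the labels' protocols. Limma 3.58.1 in R 4.3.3 was run within a table on log2(FPKM + 1), with a mean-variance trend, where the mean reached 1 FPKM. Two-sided p-values were adjusted over all genes tested (Benjamini-Hochberg) and called below 0.05. The script was tested on simulated data. Fold changes on this scale are understated for low values and, beside a 0, depend on the pseudocount. Members and lists were chosen with earlier results of these data known. Named were the 2 markers, called members, the 5 of highest mean in each class, and up to 4 in each direction and table with the largest change among members with separated groups. Hosts were genes that hold a member on the same strand in GENCODE M21 (86 of 89 members), with lengths from RefSeq. Alternatives covered the pseudocount, filter, scaling, trend, replicate number as a block, and each library left out. 1 host gene is not reported here by name.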

Additional observations from a re-analysis of the deposited data

How the results depend on the processing

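The count of called members in the double mutants was 16 and stayed between 14 and 17 with a pseudocount of 0.1 or 5, a mean of at least 5 FPKM, either other scaling or no mean-variance trend. Without a filter it was 8, with 1392 of all genes called in place of 2173 and 11 of the protein genes in place of 17. All of the 16 that were tested kept a positive sign in every alternative. Leaving out 1 library gave 3 to 17 called members, 30 to 1555 genes, 0 to 15 protein genes and 0 to 13 hosts in the double mutants, and 0 to 4 members and 5 to 16 genes in the Smad4 KO group. For all genes in the Smad4 KO group the count of 4 became 2 with a pseudocount of 5 and 7 when libraries were scaled to their sum without the 50 highest genes.

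With the replicate number as a block, 16 members were called in the double mutants, 12 of them the same, with 12 protein genes, 15 hosts and 1602 genes, and 0 members and 1 gene in the Smad4 KO group. The numbers are not stated to pair the libraries: deviations of same-numbered controls and mutants correlated at -0.111, 0.223 and -0.0987 in the Smad4 KO table and at 0.072, 0.132 and 0.0374 in the other, where every control correlated best with its own number.

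Among named members, 9 fold changes reversed in the double mutants and 11 in the Smad4 KO group, none of them of a called member. In the double mutants Scarna13 was -0.027 with a pseudocount of 0.1. With 1 library left out, Snord65 ran from -0.36 (without control 1) to 5.88, Scarna3a from -1.81 to 1.30 (above 0 without control 1, control 2 or double mutant 2), Scarna13 from -0.49 (without control 1) to 0.53 and Snora2b from -0.85 to 0.33 (above 0 without control 1, control 2 or double mutant 1). In the Smad4 KO group Snord65 ran from -4.41 to 3.53 (above 0 without control 0, control 2 or Smad4 KO 1) and Scarna3a from -2.04 to 0.91 (above 0 without control 1, control 2 or Smad4 KO 0). Scarna13 ran from -0.061 to 1.14 (below 0 without control 1 or Smad4 KO 0) and Snord73a from -2.81 to 3.03 (below 0 without control 0, control 2 or Smad4 KO 2). The cause was not tested. Depth is unknown and zeros are frequent, which limits every short entry.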
